A study of Oryzias latipes with 20 samples.

Results

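The genes described are 54 medaka genes for translation initiation, elongation and termination factors, measured by RNA sequencing of a brain block that held ventral telencephalon, hypothalamus and pituitary in 1 sample. They were chosen by symbol: those starting with eif or eef and a number, and those starting with etf1, gspt1, paip or pabpc, with a mean of at least 1 FPKM over the 20 libraries. FPKM divides a gene's fragments by its length in kilobases and by the size of the library, so levels can be compared between genes. Of 55 matching symbols among the 22615 genes of the table, 54 met the threshold, and all 54 also passed the filter for testing, which is the same mean and left 15947 genes. Just outside lay pabpc4 with a mean of 0.178 FPKM, and just inside lay eef1akmt3 with 1.51 FPKM and eef2kmt with 4.18 FPKM.

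Medaka (Oryzias latipes) were held under an unchanging photoperiod, and tissue was taken on days 0, 7, 30, 60, 90, 120 and 150, counted from a transition to a condition labelled LW. There were 3 libraries per day except on day 60, which had 2. All groups share the species, the tissue block and the description of an unchanging photoperiod. The labels do not spell out what LW means, and day 0 is the day of the transition. Each comparison with day 0 may therefore carry the change of condition as well as the time elapsed, which cannot be told apart. The sources used here do not give the strain, sex or age of the fish or the hour of sampling. Nothing says that the samples of a day came from different fish, so p-values measure only the spread between these samples, which may be technical.

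Initiation begins when eIF4F binds the cap of an mRNA and its helicase eIF4A unwinds the leader, while eIF2 brings the initiator tRNA to a small ribosomal subunit that carries eIF3. Once the start codon is found, eIF5 and eIF5B release eIF2 and join the large subunit. eEF1A and eEF2 then drive elongation, and the release factors eRF1 and eRF3 end it. In neurons this machinery also serves local protein synthesis in dendrites and axons. It is regulated mainly after the mRNA is made, through phosphorylation of eIF2, the eIF4E-binding proteins and eEF2, which transcript levels do not report.

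Each of the dissected regions had markers present in every library. The 4 telencephalon markers summed to 50.2 to 74.7 FPKM and the 5 hypothalamus markers with a symbol to 72.0 to 130.07 FPKM. The 5 pituitary hormone genes with a symbol summed to 135.3 to 1105 FPKM at day 60, to 704 to 1166 FPKM at day 7 and to 2553 to 4905 FPKM at day 150. Of these hormone genes pomc had the highest mean, 1300 FPKM, and ran from 88.56 to 4420 FPKM. prl had a mean of only 0.277 FPKM and a lowest value of 0. What part of the spread of the sums lies in the dissection was not tested. Erythrocyte markers had no matching symbol and were not checked. Total FPKM per library lay between 374770 and 405678, and the 3 day 7 totals, at 374770 to 378027, were below all others, of which the lowest was 383878. Read depth is unknown, and the number of libraries limits the precision. In a tissue block, fewer cells of a type and less RNA per cell cannot be told apart.

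Mean levels of the 54 genes ran from 1.51 to 1870 FPKM, with a median of 35.1 FPKM, against 9.05 FPKM for all genes tested. Elongation held the extremes. eef1a, which carries aminoacyl-tRNA to the ribosome, ranged from 1652 to 2214 FPKM and made up 34.1 to 40.5% of the summed level of the 54 genes. The subunits of its exchange factor followed, with 350 FPKM for eef1g and 336 FPKM for eef1b2. At the other end of the same group stood the methyltransferases that modify these factors, eef1akmt2 at 7.45 FPKM, eef2kmt at 4.18 FPKM and eef1akmt3 at 1.51 FPKM.

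Among the 11 eIF3 subunits with a symbol, eif3f was the most abundant at 194 FPKM, with eif3e at 162 FPKM and eif3k at 99.3 FPKM. The loosely bound subunit eif3j was the lowest of them at 26.2 FPKM. The 3 eIF2 subunits had mean levels of 67.2 FPKM for eif2s1, 57.0 FPKM for eif2s3 and 41.1 FPKM for eif2s2. Each was above every subunit of eIF2B, the exchange factor that reloads eIF2 with GTP, whose subunits reached 25 FPKM for eif2b2 and were lowest for eif2b1. The kinases of eIF2 with a symbol were lower still, with 6.79 FPKM for eif2ak3 (PERK, which senses endoplasmic reticulum stress) and 5.13 FPKM for eif2ak4 (GCN2, which senses uncharged tRNA).

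In the cap-binding group, eif4a3, the helicase of the exon junction complex, had 87.0 FPKM, eif4h, which stimulates eIF4A, had 78.0 FPKM and eif4a2 had 70.7 FPKM. The scaffold genes were lower, at 26.8 FPKM for eif4g2, 18.9 FPKM for eif4g3 and 13.0 FPKM for eif4g1. The 3 genes for eIF4E-binding proteins, repressors of cap binding under the control of mTOR, had 60.7 FPKM for eif4ebp2, 21.5 FPKM for eif4ebp1 and 20.9 FPKM for eif4ebp3. Among the factors of start codon selection and subunit joining, eif5 stood at 93.1 FPKM, against 22.2 FPKM for eif6, which keeps free large subunits apart, and 21.1 FPKM for eif5b. In the termination and poly(A)-binding group, pabpc1 had 344 FPKM, its inhibitors paip2b and paip2 had 91.2 and 54.5 FPKM, its partner paip1 had 19.5 FPKM, and the release factor genes gspt1 and etf1 had 37.1 and 29.8 FPKM.

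**Figure D1:**
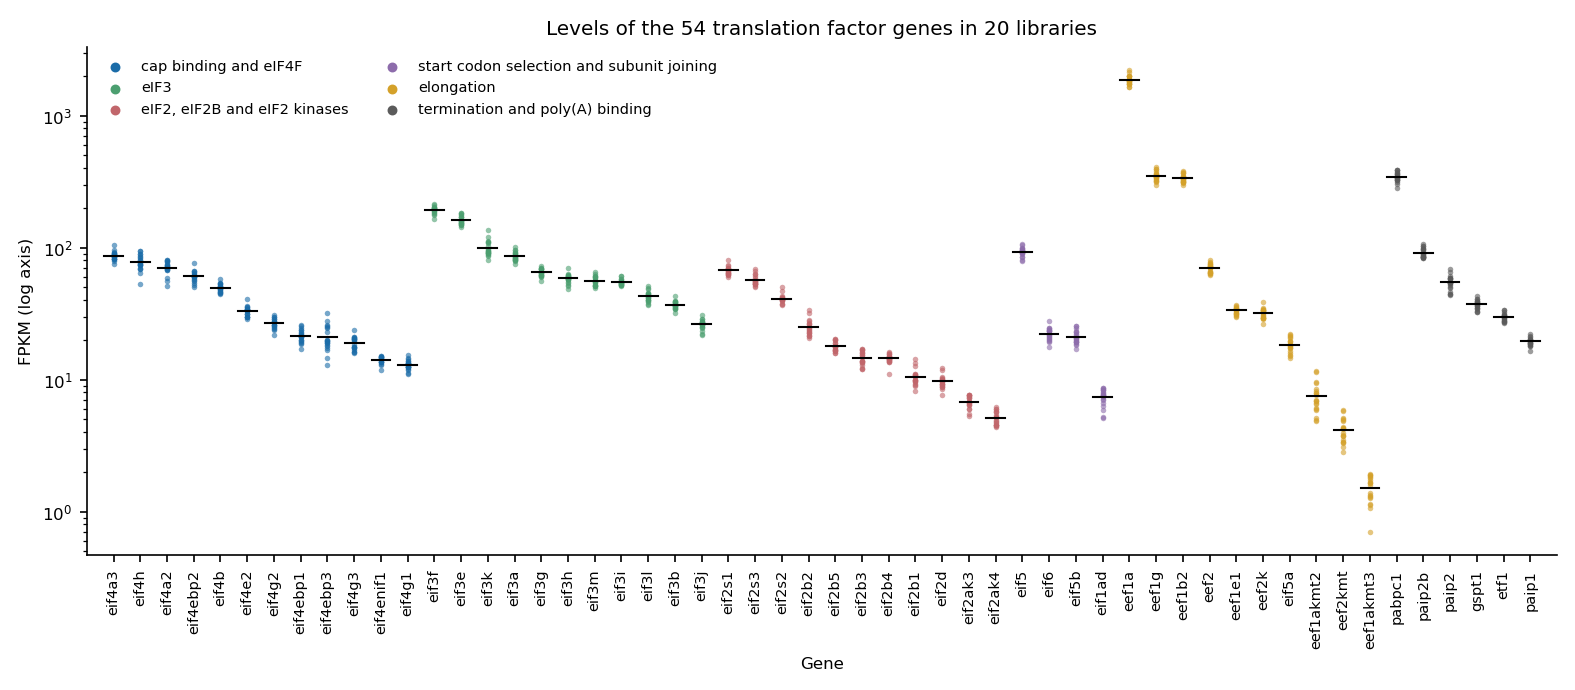
FPKM (log axis) of each of the 54 genes in each of the 20 libraries (points) with the mean over libraries (bar), grouped by role. eef1a lies above all others at a mean of 1870 FPKM, and eef1akmt3 is the lowest at 1.51 FPKM with the widest relative range.

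Several factors are listed under a locus number and so are not among the 54. By the protein descriptions in the deposited table, 29 further genes encode such factors, 24 of them at 1 FPKM or more on average. They include the most abundant eEF2 gene, LOC101171982, at 390 FPKM against 70.2 FPKM for eef2, and an eIF5A gene, LOC101154812, at 196 FPKM against 18.4 FPKM for eif5a. An eIF4A-I gene, LOC101155548, had 114 FPKM, and a further gene for somatic eEF1A, LOC101166076, had 193 FPKM. Reads from near-identical copies are shared out by the counting, so levels within families with several listed genes may be split. Among these families are eEF1A, eEF1B, eEF2, eIF3D, eIF3F, eIF4A, eIF4G1, eIF5A, eRF3, eIF4E-binding protein 2 and poly(A)-binding protein 1. A further gene described as eIF4G1, LOC101158558, had 20.1 FPKM, against 13.0 FPKM for eif4g1.

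Most of the 54 genes varied less between libraries than genes in general. The coefficient of variation over the 20 libraries had a median of 8.41% for the 54 genes, against 13.4% for all genes tested and 10.1% for the genes that averaged 10 FPKM or more. In 45 of the 54 it was below the median of all genes tested. The same held for 5440 of the 7400 genes that averaged 10 FPKM or more. The eIF3 subunits with a symbol had a median of 7.64%, with eif3i the steadiest member at 5.18%, between 51.2 and 61.5 FPKM. The 67 cytosolic ribosomal protein genes had a median of 8.68%, while the 24 factors under a locus number had 13.6%, with 10 of 24 below the median of all genes. Above 20% lay 4 genes, eif4ebp3 at 22.4% and the 3 methyltransferases at 20.9 to 25.9%, of which eef2kmt and eef1akmt3 had the lowest means of all members.

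**Figure D2:**
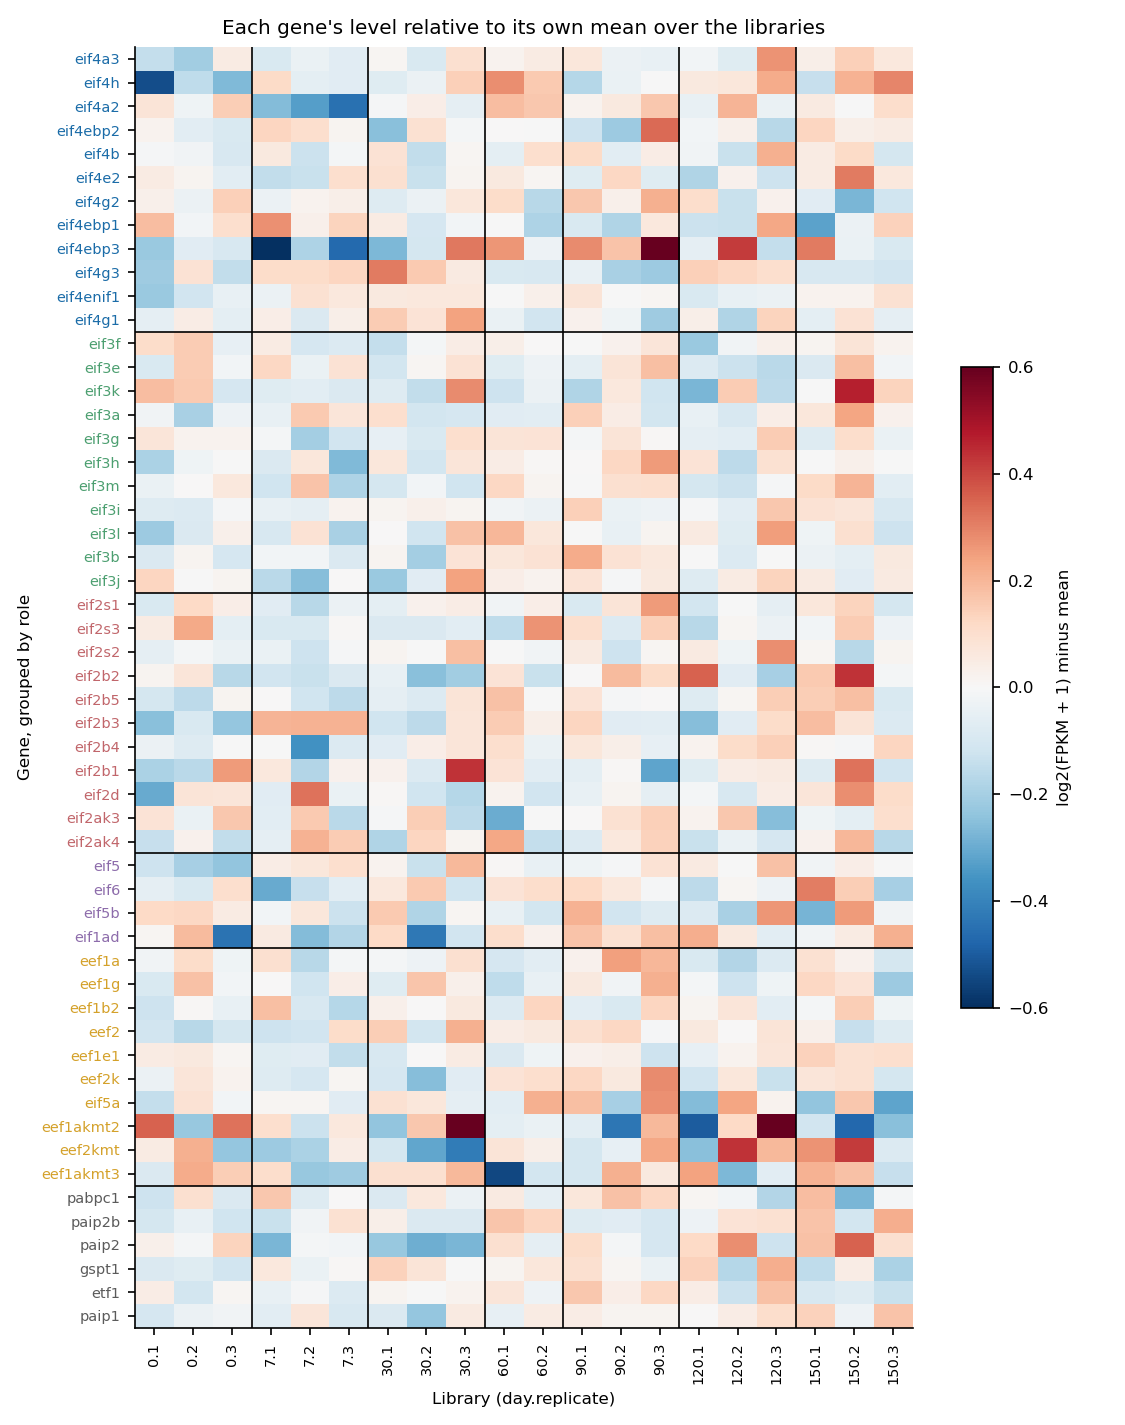
log2(FPKM + 1) of each gene (rows, by role) in each library (columns, day and replicate) minus the gene's mean over the libraries; colours saturate at 0.6 either way. The row of eif4a2 is blue in all 3 day 7 libraries, and the most uneven rows are eif4ebp3, eef1akmt2 and eef2kmt.

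The first question was whether any factor gene differed between sampling days. None of the 54 passed limma's F test over the 7 days, in which 0.0941% of all genes tested passed, nor the F test over days 7 to 150, with the same share of 0.0941%. At an unadjusted p under 0.05 there were 9 of 54 (16.7%) over all days, against 13.1% of all genes, and 6 of 54 (11.1%) over days 7 to 150, against 13.0%. By role, the 9 genes were 5 of 12 in the cap-binding group (eif4a2, eif4g3, eif4h, eif4ebp3 and eif4enif1), eif2b3, eif5, eef2k and paip2, with 0 of 11 among the eIF3 subunits. The smallest adjusted p values belonged to eif4a2 (0.085), eif4g3 (0.157), paip2 (0.231) and eif4h (0.236).

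Set against day 0, none of the 54 passed at any day, where 0.0627% of all genes passed at day 7, 0.0% at day 30, 0.00627% at day 60, 0.0% at day 90, 0.0314% at day 120 and 0.0% at day 150. At an unadjusted p under 0.05, the 54 held 7 genes at day 7 (5 higher and 2 lower), 7 at day 30 (6 higher), 5 at day 60 (4 higher), 7 at day 90 (all 7 higher), 4 at day 120 (all 4 higher) and 8 at day 150 (7 higher). As shares of the 54 these were 13.0, 13.0, 9.26, 13.0, 7.41 and 14.8%, against 8.92, 8.63, 6.93, 8.27, 9.46 and 9.61% of all genes. The genes of the whole table at that p were also mostly higher from day 30 on, with 876 of 1377 at day 30, 606 of 1105 at day 60, 817 of 1319 at day 90, 969 of 1509 at day 120 and 1020 of 1532 at day 150, and 716 of 1423 at day 7. These 6 comparisons use the same 3 day 0 libraries, so a low or high value there enters each of them.

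The median log2 change of the 54 genes was small at every day. It was -0.02 at day 7 (0.02 with libraries rescaled to the same total), 0.02 at day 30, 0.04 at day 60, 0.06 at day 90, 0.03 at day 120 (-0.007 with quantile normalization and -0.001 with libraries rescaled) and 0.07 at day 150, beside 0.00 to 0.02 for all genes tested. At day 90, 39 of 54 changes were positive (72.2%, against 54% of all genes), and at day 7, 25 of 54 were (46.3%, against 50.6%). The precision was enough to bound most genes on the scale of FPKM + 1, which understates changes of low genes. There the 95% interval of the change lay within 1.5-fold either way for 50 to 53 of the 54 genes, depending on the day. The genes outside that bound at some day were eif4h, eif4ebp3, eif2b3, eef1akmt2, eef1akmt3 and eef2kmt, and the median standard error was 0.09 on the log2 scale (0.10 at day 60).

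**Figure D3:**
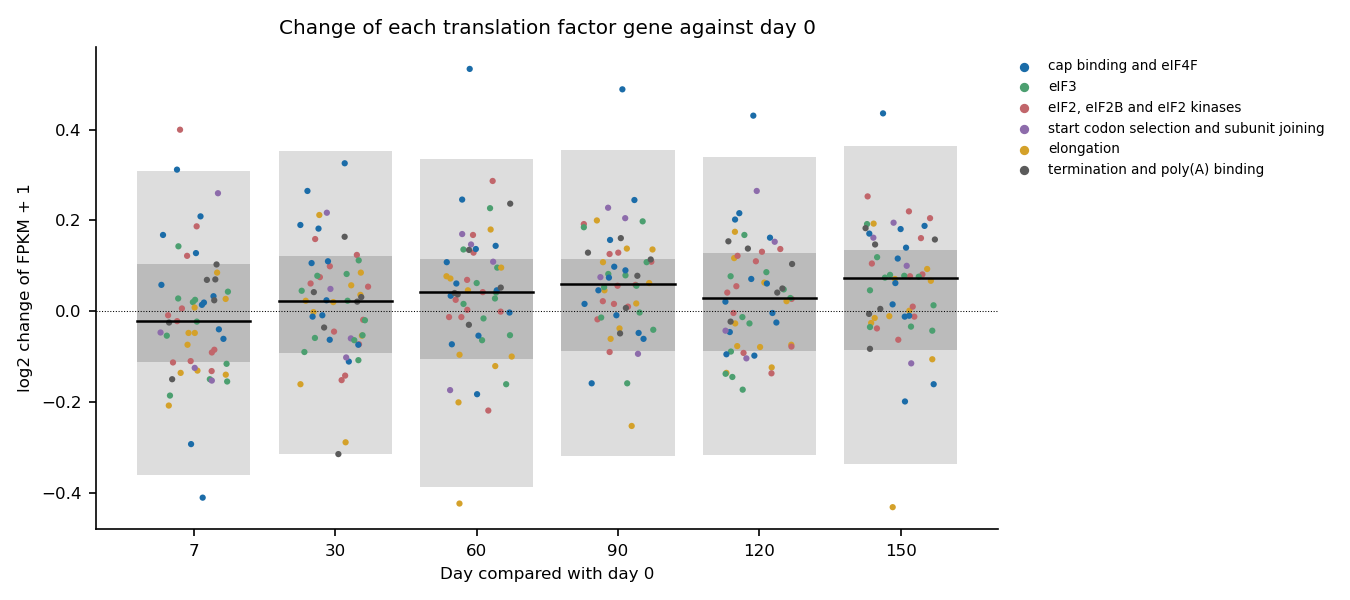
Fitted log2 change of FPKM + 1 against day 0 for each of the 54 genes (points, coloured by role) at each later day; the black line is their median, and the dark and light grey boxes hold the central 50% and 90% of all 15947 genes tested. Most points lie in the light box; eif4a2 is the lowest point at day 7 (-0.41) and eif4h the highest at day 60 (0.53).

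eif4a2 encodes the eIF4A paralog known in mammals to be abundant in neurons. It had been singled out with its day 7 values known. Those values, and the share, interval, p and calls drawn from them, are therefore given as a description. At day 0 it read 74.1, 68.9 and 77.8 FPKM. At day 7 it read 58.5, 55.6 and 51.2 FPKM. The 3 day 7 values lay below all 17 other libraries, which ran from 67.5 to 81.1 FPKM; all libraries of day 7 below all others held for 0.307% of genes tested. The log2 change was -0.41 (SE 0.07, 95% interval -0.57 to -0.26), and limma's adjusted p of 0.0583 missed the threshold of 0.05. The change was -0.37 with libraries rescaled to the same total. Across 31 alternative settings the change ranged from -0.46 to -0.36, the adjusted p from 0.0299 to 0.296, and 3 settings called it, among them the fit without day 120 replicate 2 (81.1 FPKM, the highest library).

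From day 30 on, eif4a2 overlapped its day 0 values at every day except day 60. It read 69.8, 72.2 and 67.5 FPKM at day 30, 80.0 and 78.6 FPKM at day 60, and 71.2, 73.3 and 78.7 FPKM at day 90. The day 60 pair lay above all 3 day 0 libraries. At day 120 the values were 68.0, 81.1 and 68.4 FPKM and at day 150 they were 73.1, 70.1 and 75.7 FPKM, both overlapping day 0. The log2 changes from day 30 onward lay between -0.07 and 0.11, with limma's adjusted p from 0.825 to 0.978. Summed pituitary hormone genes were 704 to 1166 FPKM at day 7 and 763 to 2218 FPKM at day 0, which overlap, and neuron markers were 1717 to 2000 and 1897 to 1964 FPKM; their part in the day 7 values of eif4a2 was not tested.

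The close paralog LOC101155548, described as eIF4A-I, was not lower at day 7. It had 119.87, 103.51 and 117.95 FPKM at day 7 and 107.97, 106.89 and 113.27 FPKM at day 0, which overlap, with a log2 change of 0.05 (95% interval -0.10 to 0.21). The level of eif4a2 divided by that of LOC101155548 was 0.488, 0.537 and 0.434 at day 7 and 0.645 to 0.687 at day 0. The day 30 libraries reached down to 0.516, so the ratio at day 7 overlapped that of other days. The difference between the changes of these genes was not tested. The third helicase gene, eif4a3, had 81.4, 84.3 and 82.7 FPKM at day 7, inside its day 0 range of 75 to 89.7 FPKM.

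Among the genes with a symbol, those whose log2 levels followed eif4a2 most closely over the 20 libraries were lonrf1 (Pearson r 0.769), mrpl57 (0.742), hspa4l (0.708), cdc42se2 (0.701) and fig4 (0.701). Among the other members these were eif4ebp3 (0.649), eif2b4 (0.536) and eif6 (0.469). The most opposed were dot1l (-0.816) over those genes and eif4g3 (-0.505) and eif2b3 (-0.498) over the members. All points come from the same libraries and share their totals, so these are descriptions. dot1l read 60.3, 74.9 and 68.2 FPKM at day 7, against 38.5 to 39.6 FPKM at day 0.

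The other genes of the eIF4F group with an unadjusted p under 0.05 over the days were eif4h, eif4g3, eif4ebp3 and eif4enif1, and none passed the test. For eif4h, the 3 day 0 libraries read 53.1, 69.4 and 64.2 FPKM, with day 0 replicate 1 the lowest of all 20. Every library from day 7 on except day 90 replicate 1 (68.5 FPKM) lay above the 3, with 93.9 and 86.4 FPKM at day 60, 80.5, 81.0 and 90.2 FPKM at day 120 and 70.03, 89.4 and 94.9 FPKM at day 150. The share of all genes placed in this way was not computed, and the low day 0 replicate 1 enters every comparison. The log2 change was 0.53 at day 60 (95% interval 0.27 to 0.80, limma's adjusted p 0.37), 0.43 at day 120 (0.274) and 0.44 at day 150 (0.267).

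For eif4g3, a scaffold on which the cap-binding protein and the helicase meet, the 3 day 7 libraries read 20.4, 20.4 and 20.7 FPKM. Day 120 was as tight, at 20.9, 20.6 and 20.3 FPKM, and day 30 read 23.6, 21.1 and 19.5 FPKM. Days 60, 90 and 150 were lower, at 16.02 to 18.2 FPKM together, and did not overlap those 3 days, while day 0 spread from 16.1 to 20.03 FPKM. This split of the days was chosen after the values were seen, and the share of all genes with such a split was not computed. In limma's F test over days 7 to 150 the adjusted p was 0.148.

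The repressor gene eif4ebp3 had the highest coefficient of variation of the cap-binding group and ran from 13.0 to 32.1 FPKM. It read 17.4, 19.5 and 19.1 FPKM at day 0, 13.0, 17.9 and 14.6 FPKM at day 7 and 25.2, 23.2 and 32.1 FPKM at day 90. The day 90 libraries lay above those of days 0 and 7, and days 7 and 0 overlapped. Its change at day 90 was 0.49 (95% interval 0.11 to 0.87, limma's adjusted p 0.458) and its slope of 0.08 log2 units per 30 days was the steepest of the 54 (adjusted p 0.363). The other binding protein genes had day 90 changes of -0.16 (eif4ebp1) and 0.05 (eif4ebp2), each with an interval that spans 0.

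eif4enif1, whose product carries the cap-binding protein between nucleus and cytoplasm, gave small differences of like size. Its libraries read 11.9, 12.9 and 13.6 FPKM at day 0 and 13.7, 14.99 and 14.7 FPKM at day 7, with no overlap. Libraries of days 30, 60, 90 and 150 were also all above day 0, and day 120, at 13.1 to 13.7 FPKM, overlapped it. The log2 changes were 0.07 to 0.19, and the smallest limma adjusted p was 0.366, at day 30.

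**Figure D4:**
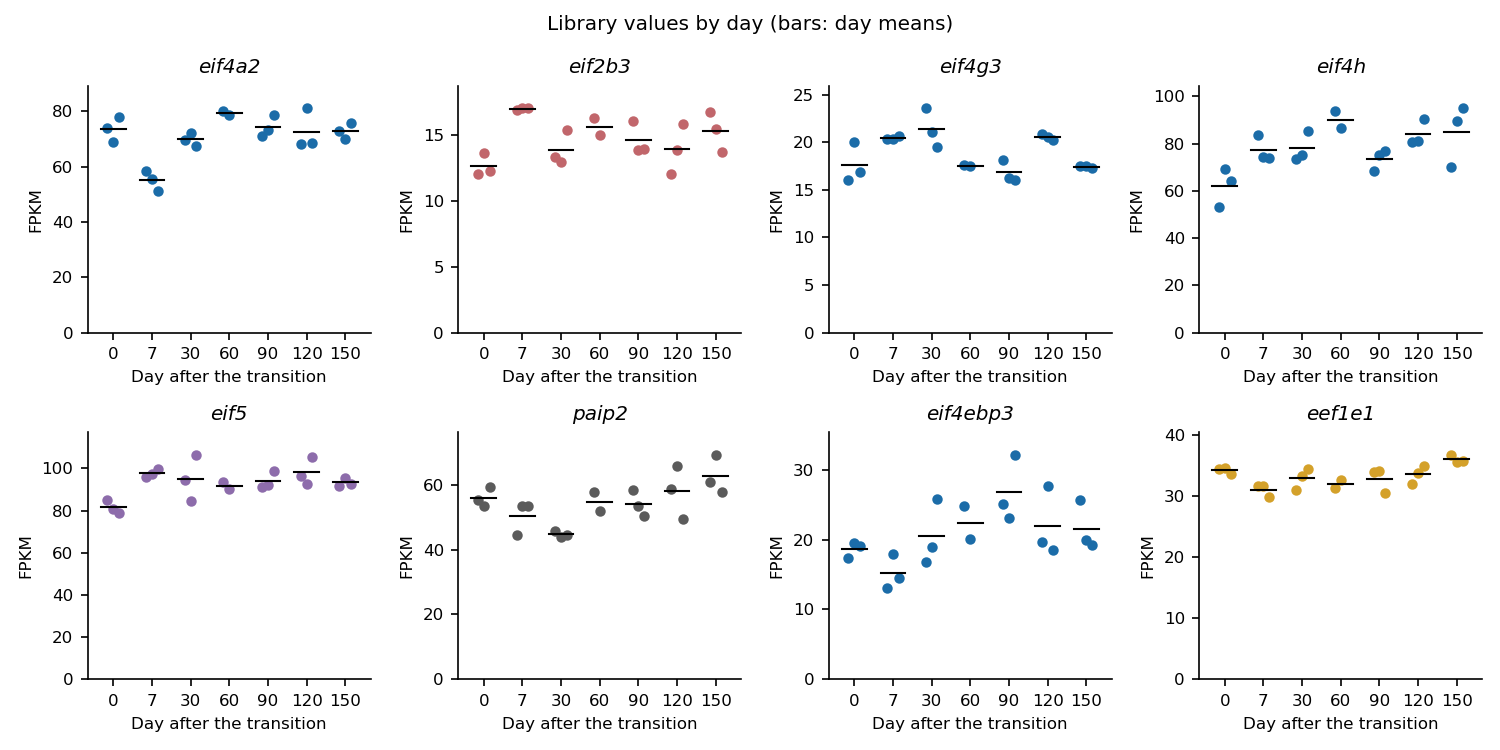
FPKM by day for 8 of the genes, 1 point per library and a bar at the day mean; every vertical axis starts at 0. The day 7 points of eif4a2 sit at 51.2 to 58.5 FPKM below all its other points, and those of eif2b3 at 16.9 to 17.0 FPKM sit just above its others.

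In the eIF2 group, eif2b3, the gamma subunit of the exchange factor, gave the largest positive change of the 54 at day 7. It read 16.9, 17.0 and 17.0 FPKM at day 7 and 12.1, 13.6 and 12.3 FPKM at day 0. The day 7 values were above all other libraries, but by little, since day 150 replicate 1 reached 16.7 FPKM and day 60 replicate 1 reached 16.3 FPKM; all libraries of day 7 above all others held for 0.383% of genes tested. The log2 change was 0.40 (95% interval 0.19 to 0.61), with limma's adjusted p at 0.175. Its 4 partner subunits gave changes of either sign at day 7, and none of the other 10 genes of this group reached an unadjusted p under 0.05 there.

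eif2b2, the beta subunit, had 1 of the 3 steepest positive slopes, at 0.05 log2 units per 30 days (limma's adjusted p 0.314). Libraries of a day differed: day 120 read 31.97, 23.6 and 21.5 FPKM and day 150 read 27.8, 33.8 and 24.6 FPKM. Day 90 read 24.8, 28.5 and 26.9 FPKM, against 25.1, 26.2 and 22.0 FPKM at day 0. Each of these later days overlapped day 0. For the 3 subunits of eIF2 itself, the lowest bound of any 95% interval of a day's change was -0.36, for eif2s3 at day 30. eif2s1, the subunit that the eIF2 kinases phosphorylate, ran from 59.6 to 80.2 FPKM with every day overlapping day 0.

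By median coefficient of variation, the 11 eIF3 subunits with a symbol were the steadiest of the 6 role groups. None of the 11 had an unadjusted p under 0.05 in limma's F test over days, against 13.1% of all genes. The smallest adjusted p was 0.525, for eif3b. In the contrast of day 90 with day 0, 2 of the 11 (18.2%, against 8.27% of all genes) had an unadjusted p under 0.05, eif3b and eif3h. At day 90 eif3b read 43.1, 39.2 and 38.5 FPKM, above 34.5, 37.1 and 34.2 FPKM at day 0, a log2 change of 0.19 (95% interval 0.04 to 0.33, limma's adjusted p 0.481). eif3h had 58.35 to 69.78 FPKM at day 90 and 50.92 to 58.28 FPKM at day 0, a change of 0.198 (limma's adjusted p 0.603). eif3k was the most uneven of the 11, with 81.2 FPKM in day 120 replicate 1 and 136.4 FPKM in day 150 replicate 2. Its days all overlapped day 0. The described eIF3D genes LOC101166133 and LOC101166384, outside the 11, had coefficients of variation of 23.7 and 22.8%. Their log2 changes at day 120 were 0.83 (95% interval 0.35 to 1.31) and -0.55 (-1.09 to -0.02), with limma's adjusted p at 0.311 and 0.525. The genes carry the same description, and how reads were shared out between them was not tested.

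For start codon selection, eif5, the GTPase-activating protein of eIF2, read 85.1, 80.7 and 78.6 FPKM at day 0. At day 7 it read 95.9, 97.5 and 99.6 FPKM, and at day 120 it read 96.6, 92.6 and 105.2 FPKM. All later libraries except day 30 replicate 2 (84.7 FPKM) lay above the 3 of day 0. The share of all genes placed in this way was not computed. The log2 change was 0.26 at day 7 (95% interval 0.11 to 0.41, limma's adjusted p 0.221) and 0.27 at day 120 (0.308), and the F test among days 7 to 150 gave 0.896. In contrast to eif5, eif5b had changes of -0.17 to -0.09 at the 6 days, each with an interval spanning 0, and eif6 had changes of -0.15 to 0.11.

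In elongation, eef1a had its highest mean at day 90, with 1898, 2214 and 2143 FPKM, and its lowest mean at day 120, with 1749, 1652 and 1761 FPKM. These days do not overlap each other, but they were picked as the highest and lowest means. The share of all genes with such a gap was not computed. Day 60 (1742 and 1785 FPKM) and day 120 lay below day 0 (1836, 2011 and 1830 FPKM), and day 90 overlapped it. All libraries below those of day 0 held for 11.5% of genes tested at day 60 and 6.08% at day 120. The log2 changes against day 0 were 0.14 at day 90 and -0.14 at day 120, with intervals that span 0 (limma's adjusted p 0.705 and 0.66). eef2, the translocase, read 62.4 to 64.9 FPKM at day 0 and lay above that range at days 60, 90 and 120, with changes of 0.18, 0.20 and 0.18 (adjusted p 0.744, 0.532 and 0.527). The more abundant eEF2 gene LOC101171982 had changes of -0.11, 0.07 and -0.13 at those days, each with an interval that spans 0, and overlapped day 0 at each. Its kinase eef2k, which slows elongation, had its lowest mean at day 30 (29.5, 26.4 and 30.2 FPKM) and its highest at day 90 (34.6, 33.1 and 38.9 FPKM), with an adjusted p of 0.301 among days 7 to 150.

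eef1e1, which binds the complex of aminoacyl-tRNA synthetases, had a narrow range of 29.9 to 36.8 FPKM. At day 150 it read 36.8, 35.6 and 35.9 FPKM, above all 17 other libraries, of which the highest had 35.1 FPKM; such a position of day 150 held for 0.383% of genes tested. Against day 0 its change at day 150 was 0.07, and at day 7, with 31.7, 31.8 and 29.9 FPKM, it was -0.14 (limma's adjusted p 0.715 and 0.511). The methyltransferase gene eef1akmt2 had the most negative slope, -0.06 per 30 days (adjusted p 0.538), with 4.84 to 11.6 FPKM within day 120 alone, and eef2kmt had the second steepest positive slope, 0.06 (0.372).

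Among the poly(A)-binding genes, paip2, an inhibitor of the poly(A)-binding protein, read 46.0, 44.0 and 44.6 FPKM at day 30 and 55.3, 53.6 and 59.4 FPKM at day 0, without overlap. One day 7 library, at 44.6 FPKM, reached into the day 30 range, and at day 150 the values were 61.2, 69.4 and 58.0 FPKM. The change at day 30 was -0.31 (95% interval -0.53 to -0.10, limma's adjusted p 0.381) and the F test over days 7 to 150 gave 0.205. Its relative paip2b had 102.1 and 99.7 FPKM at day 60, above 83.6 to 88.1 FPKM at day 0 (0.24, adjusted p 0.624), and a day 30 change of 0.04. pabpc1 itself ran from 283 to 391 FPKM, with both extremes at day 150. The release factor genes etf1 and gspt1 had no adjusted p under 0.6 in any day comparison. gspt1 read 34.1 to 35.1 FPKM at day 0, and all its libraries of days 7, 30, 60 and 90 lay above that range. Such a position held for 8.16, 9.39, 13.2 and 8.46% of genes tested at those days. At days 120 and 150 gspt1 overlapped day 0. The described eRF3A gene LOC101175535, outside the 54, had changes of 0.44 at day 7, 0.47 at day 30 and 0.002 at day 150. Their adjusted p by limma were 0.212, 0.239 and 0.998. LOC101169122, described as like poly(A)-binding protein 1, had a day 60 change of 0.395 (limma's adjusted p 0.44).

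Over the whole period, limma's slope test called none of the 54 genes, where 0.00627% of all genes passed. At an unadjusted p under 0.05 there were 10 of 54 (18.5%), against 11.2% of all genes. All 10 slopes were positive; among all genes at that p, 1176 of 1786 were. They were eif4a3, eif4h, eif4ebp3, eif2b2, eif2b4, eif2b5, eif1ad, eef2kmt, paip1 and paip2, with slopes of 0.03 to 0.08 log2 units per 30 days and adjusted p from 0.31 to 0.413. The lowest slopes were those of eef1akmt2, eif4ebp1 (-0.03) and eif4g2 (-0.02).

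Counted by libraries that do not overlap day 0, the 54 held 6 genes above (8.16% of all genes tested were above) and 3 below (8.24%) at day 7. There were 6 above (9.39%) and 3 below (6.38%) at day 30, 14 above (13.2%) and 4 below (11.5%) at day 60, and 9 above (8.46%) and 0 below (6.08%) at day 90. Day 120 had 7 above (9.12%) and 1 below (6.08%), and day 150 had 7 above (9.33%) and 1 below (5.17%). eif4enif1, eif4h and eif5 recur most often in these sets, followed by eif2b3 and gspt1. Other genes, eef2 among them, also appear at more than 1 day. All these sets share the day 0 libraries.

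The sum of the 54 genes was 1.24 to 1.42% of the total FPKM of a library. The 3 day 120 libraries, at 1.24, 1.25 and 1.24%, lay below all others, the lowest of which had 1.26%, and day 90 had the highest mean, at 1.33, 1.39 and 1.42%, overlapping other days. In summed FPKM day 120 did not stand apart, at 4837 to 4991 FPKM, since a day 7 library had 4736 FPKM; the day 120 totals were 387734 to 402953 FPKM. The largest single share was that of eef1a, at 35.8, 34.1 and 35.3% of the sum in the day 120 libraries. Its own mean was also lowest at day 120, and the sum without eef1a was not compared between days. For the position of day 120 no share over all genes was computed. By role, the cap-binding group summed to 460 to 526 FPKM, eIF3 to 819 to 983 FPKM and the eIF2 group to 252 to 295 FPKM. Cytosolic ribosomal protein genes made up 8.72 to 10.9% of the total, with 8.72, 8.91 and 9.29% at day 120, which overlaps other days.

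**Figure D5:**
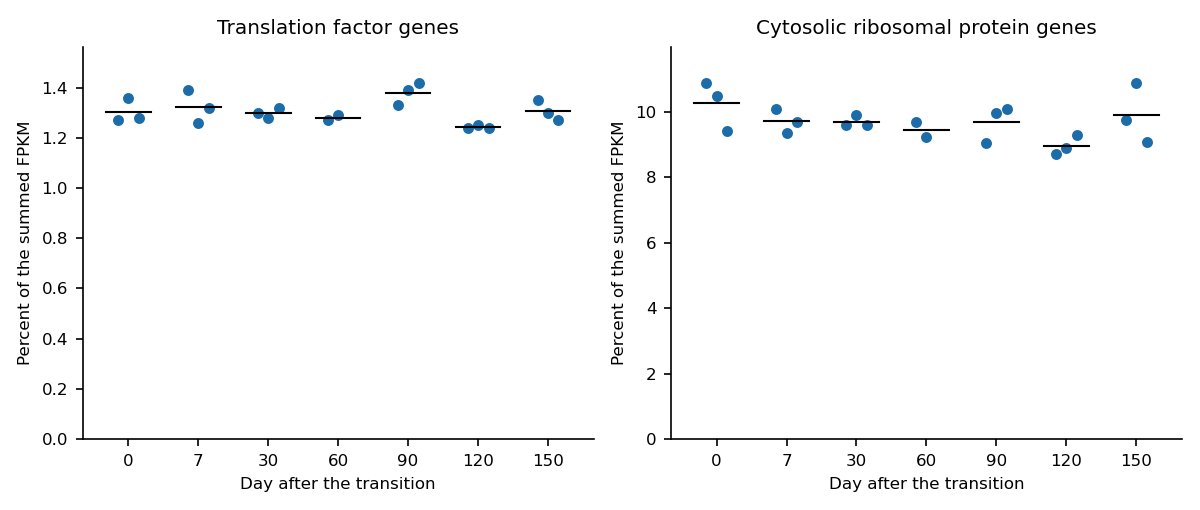
Summed FPKM of the 54 translation factor genes (left) and of 67 cytosolic ribosomal protein genes (right) as a percent of each library's total FPKM, by day, 1 point per library with the day mean as a bar; both vertical axes start at 0. The day 120 points on the left, at 1.24 to 1.25%, are the lowest. eef1a alone makes up 34.1 to 40.5% of the summed level on the left.

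Neighbouring parts of the pathway gave the same count of 0 genes called in every test, in 6 lists of tested genes, where 0.0941% of all genes passed the F test over the 7 days. These were 20 genes of cytosolic aminoacyl-tRNA synthetases and their complex, 19 of mTOR and translation control and 14 of ribosome recycling and rescue. The others were 10 mitochondrial factors, 8 of diphthamide and hypusine synthesis and 8 of the integrated stress response. At an unadjusted p under 0.05 in the F test over the 7 days, the counts were 2, 5, 3, 1, 1 and 1, in that order, or 10, 26.3, 21.4, 10, 12.5 and 12.5% of each list against 13.1% of all genes. The smallest adjusted p was that of ddx3x, a helicase that helps scanning, at 0.0851. Its level was 97.8 to 109 FPKM at day 90 and 73.9 to 83.2 FPKM at day 150, with log2 changes against day 0 of 0.22 and -0.17 (limma's adjusted p 0.292 and 0.443).

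In the list of the integrated stress response, the program set off by eIF2 phosphorylation, chac1, a gene induced by ATF4, had the smallest adjusted p in the F test (0.164) and a day 120 change of 0.45 (95% interval 0.24 to 0.65, adjusted p 0.159). atf4 itself had a day 120 change of 0.08 and asns, which makes asparagine, 0.25 (0.527). In the synthetase list, lars had a day 30 change of 0.47 (limma's adjusted p 0.223), and 19 of the 20 genes had a positive change at day 30, with a median of 0.16 against 0.01 for all genes, of which 53.7% were positive. The later days, which share the day 0 libraries, gave 17 or 18 positive of 20, with medians of 0.07 at day 60, 0.09 at day 90, 0.17 at day 120 and 0.105 at day 150. At day 7, 13 of 20 were positive, with a median of 0.056. The 67 cytosolic ribosomal protein genes leaned the other way against the same day 0 libraries. Over the 6 days, from 3 of 67 (day 120) to 29 of 67 (day 150) were positive. The mTOR inhibitor gene deptor had a change of -0.28 at day 7 (adjusted p 0.189) and the same at day 30 (0.239). Its changes at the later days ran from -0.23 at day 120 to -0.10 at day 90. Limma's F test over days 7 to 150 gave it an adjusted p of 0.519. dph7, which acts in the modification of eEF2, had a change of 0.29 at day 150 (0.482).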

How the data were processed

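The deposited values are FPKM, 1 column for each sample, per the file headers, given to 2 decimals, from which read depth could not be recovered. The submitters' processing notes name RSEM (1.2.12) and Bowtie2 (2.2.5); the build and annotation are not stated in what was used here. Per the labels' protocols, libraries were strand-specific and from polyadenylated RNA. RefSeq's ASM223467v1 annotation, consulted only for gene names, listed all 54 identifiers.

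limma (3.58.1, R 4.3.3) was run on log2(FPKM + 1), which understates changes of low genes, over the 15947 genes tested. The model had 1 mean per day and a prior variance following the mean level, and gave F tests and two-sided contrasts with day 0; the slope per 30 days came from another model. Adjustment was by Benjamini-Hochberg over every gene tested (threshold 0.05), with 13 residual degrees of freedom. Groups are the labels' days, and replicate numbers follow accession order. The fits were tested on simulated data.

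The members, lists and tests were chosen with earlier results of these data known. The rule for named genes took eif4a2, the 3 highest means and 2 smallest F test p per role, the 3 highest and 3 lowest slopes, the eif4a, eef1a and pabpc families, and up to 3 genes per outside list by F test p. Other members are named for their role, or after their values were seen. Alternatives comprised another pseudocount (0.1), other filters (none, or 5 FPKM on average), quantile normalization, equal library totals, a flat prior, sample weights, the spread of the compared days alone, slopes on log2(day + 1) or without day 0, removal of day 60, and removal of each library. Tables and plots were made in Python (3.11.15; numpy 2.4.6, pandas 2.3.3, matplotlib 3.10.9).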

Additional observations from a re-analysis of the deposited data

How the results depend on the processing

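The count of the 54 genes called stayed at 0 under every alternative for days 30, 60, 90, 120 and 150 against day 0 and for the slope. It became 1 (eif4a2) for day 7 against day 0 with a mean of at least 5 FPKM and with sample weights, and 1 (eif4a2) among days 7 to 150 with sample weights. Leaving out each library gave 0 to 1 in the F test over all days, in the F test over days 7 to 150 and at day 7, the 1 being eif4a2 without day 120 replicate 2, and 0 to 0 in the other tests. The cause was not tested. The median log2 change of the genes at day 7, -0.022, was 0.018 when libraries were rescaled to the same total, a setting that moved the median of all genes from 0.002 to 0.038. Leaving out each library, the median ran from -0.037 to -0.003 at day 7, 0.004 to 0.037 at day 30, 0.018 to 0.06 at day 60, 0.037 to 0.084 at day 90 (0.037 without day 90 replicate 3, 0.084 without day 90 replicate 2), 0.013 to 0.049 at day 120 and 0.028 to 0.09 at day 150. At day 120 the median, 0.028, was -0.007 under quantile normalization and -0.001 when rescaled, both within the spread between libraries. The 9 counts and medians that moved are those given here, and 3 settings called the day 7 change of eif4a2. The other 1931 values kept their side of the threshold or moved by less than the spread. No single gene's change or slope with an unadjusted p under 0.05 turned its sign; slopes on log2(day + 1) were read for calls alone. Leaving out day 60 replicate 1 with day 150 replicate 2, or day 90 replicates 1 and 3, both chosen after seeing the data, gave 0 genes called in every test. No day 60 value exists without day 60. No paired analysis was possible because the labels give no pairing of samples between days. With 2 or 3 libraries a day, a p above the threshold does not show that a gene stayed level.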
